A study of Homo sapiens with 12 samples.

Results

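The IFIT genes encode interferon-induced proteins with tetratricopeptide repeats, and the table held 4 of them by symbol: IFIT1, IFIT2, IFIT3 and IFIT5, 4 of 58671 gene rows. IFIT proteins are cytoplasmic RNA-binding and scaffolding proteins that restrict virus growth. Their genes are nearly silent in resting cells of most tissues. They are switched on directly by IRF3 after double-stranded RNA is sensed, and again by the factor ISGF3, which holds STAT2 and IRF9, once secreted interferon signals back. IFIT1 binds the end of mRNA whose cap lacks ribose methylation, IFIT5 binds RNA that carries a bare triphosphate end, IFIT2 promotes cell death and restricts several viruses, and IFIT3 binds IFIT1 and IFIT2 and stabilises IFIT1.

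RNA was measured by sequencing after depletion of rRNA in A549, an epithelial cell line from a human lung carcinoma, both in parental cells (WT) and in cells in which RNase L is knocked out (RLKO). RNase L is the endoribonuclease that is activated by 2-5A and cuts single-stranded RNA, mainly after UU and UA. The groups were untreated WT, WT at 6 h after transfection of poly(I:C) at 500 ng/ml, untreated RLKO, and RLKO given the same treatment. Each group had 3 samples, 12 in all, and ERCC spike-in RNA was added to each before rRNA depletion. Poly(I:C) is a synthetic double-stranded RNA. The sources used here do not say whether the RLKO line is 1 clone or how its gene was disrupted.

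The authors deposited 1 level per group, in FPKM (a fragment count divided by transcript length and sequencing depth). The spread over samples and the read depth behind each value below are therefore unknown. A gene is said to have risen or been called only where the authors' Cuffdiff q-value for treated against untreated cells of that genotype was under 0.05. No comparison between genotypes has a test. Where a count by the authors' unadjusted p is given, the share of all kept rows at that p is not given. Such a count describes the named genes only and does not set them apart from other rows. Of 8 epithelial and A549 markers 7 reached 1 FPKM in a group, with KRT8 between 318 and 944 FPKM. EPCAM was low, at 0.558 to 1.03 FPKM, and CDKN2A, which A549 has lost, was at 0 in all groups. Of 7 markers of blood, endothelial and fibroblast cells 6 stayed under 1 FPKM (COL1A2 at 0 in all groups), and COL1A1 lay between 2.06 and 7.17 FPKM. Summed over the 8 epithelial and A549 markers, the level was 5519 FPKM in untreated and 1460 FPKM in treated WT. In RLKO it was 6038 and 3631 FPKM. Most of this sum came from AKR1B10 and AKR1C1. AKR1B10 had 3290 and 696 FPKM in WT and 3315 and 1569 FPKM in RLKO. AKR1C1 had 1055 and 180 FPKM in WT and 1090 and 453 FPKM in RLKO. KRT8 differed from the sum in RLKO, with 825 FPKM before and 944 FPKM after treatment. None of the markers was called, and 3 had an unadjusted p under 0.05, lower in WT. The sum of the 7 other markers lay between 2.79 and 8.21 FPKM. The part of this in the IFIT results was not tested. For changes, FPKM was divided by a factor per group taken from 49 ERCC rows, and log2 was taken after adding 1. That factor was 1.53 times higher in treated than untreated WT and 1.13 times higher in RLKO. On this spike-in scale the 12181 kept protein-coding genes (those that reached 1 FPKM in some group) had a median log2 change of -0.70 in WT and -0.24 in RLKO, and in FPKM as deposited -0.17 and -0.10. In bulk RNA, fewer cells and less RNA per cell cannot be told apart.

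The 4 genes lie on the plus strand of chromosome 10 within 137 kb (GRCh38, GENCODE release 29), with IFIT6P and IFIT1B between IFIT3 and IFIT1. IFIT2 lies at 89283694 to 89309276, IFIT3 at 89327894 to 89340971, IFIT1 at 89392546 to 89406486 and IFIT5 at 89414586 to 89421001. Promoter sequence was found in RefSeq (GRCh38.p14) for 3 of the 4, IFIT1, IFIT3 and IFIT5, as windows from 250 bases before to 50 bases after the start site. The windows are shown because they carry the core of the interferon-stimulated response element, the site that IRF factors and ISGF3 bind. The core was searched as GAAANNGAAA on either strand (TTTCNNTTTC on the other), with overlaps allowed. It occurred at least once in 3.57% of 35116 RefSeq windows of the same length, at least 2 times in 0.259% and at least 3 times in 0.037%. IFIT1 held 2 matches, each of the annotated starts of IFIT3 held 2, and IFIT5 held 3. Of 36 other interferon-induced effectors with a window, 26 held at least 1 match and 13 at least 2. The stretches below run 5′ to 3′ on the plus strand, with the matches in capitals.

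IFIT1, chr10:89392482-89392554: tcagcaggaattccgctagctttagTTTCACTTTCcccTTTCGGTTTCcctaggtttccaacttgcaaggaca
IFIT3, upstream start, chr10:89327816-89327909: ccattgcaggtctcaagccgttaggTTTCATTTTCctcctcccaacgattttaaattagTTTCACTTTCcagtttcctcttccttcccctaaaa
IFIT3, downstream start, chr10:89332410-89332512: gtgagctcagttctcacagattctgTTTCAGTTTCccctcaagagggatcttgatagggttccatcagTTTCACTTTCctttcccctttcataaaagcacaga
IFIT5, chr10:89414498-89414573: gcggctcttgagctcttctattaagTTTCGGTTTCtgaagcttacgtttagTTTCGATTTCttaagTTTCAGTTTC
IFIT1B, chr10:89377946-89378055: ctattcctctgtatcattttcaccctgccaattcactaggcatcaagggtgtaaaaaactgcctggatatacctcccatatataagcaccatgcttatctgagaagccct

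The matched bases TTTCACTTTC occurred in IFIT1 and before each start of IFIT3, and TTTCGGTTTC occurred in IFIT1 and IFIT5. The last match of IFIT5 ran across its start site. IFIT1B, a paralogue inside the cluster, is shown for contrast: its window held no match, and its level is given with the neighbouring genes. The windows of the nearby genes CH25H, LIPA and SLC16A12 held no match either. CH25H, without a match, had 0.0245 FPKM before and 30.6 FPKM after treatment in WT, and 0.0344 and 14.3 FPKM in RLKO. It was not called in either line. A match describes these letters only.

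In untreated cells the IFIT mRNAs were low in WT and RLKO alike, apart from IFIT5. IFIT5 stood at 16.7 FPKM in WT and 18.5 FPKM in RLKO. IFIT1 stood at 3.27 FPKM in WT and 3.28 FPKM in RLKO, IFIT3 at 2.18 and 2.58 FPKM, and IFIT2 at 1.09 and 1.41 FPKM. The order of the levels, IFIT5, IFIT1, IFIT3, IFIT2, was thus the same in both lines. The ratio of WT to RLKO lay between 0.772 and 0.998 in FPKM and between 0.946 and 1.22 on the spike-in scale, so which line is slightly higher depends on the scale for IFIT1, IFIT3 and IFIT5. All 4 members had at least 1 FPKM in each untreated group, so none entered the comparison through its treated value alone.

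**Figure D1:**
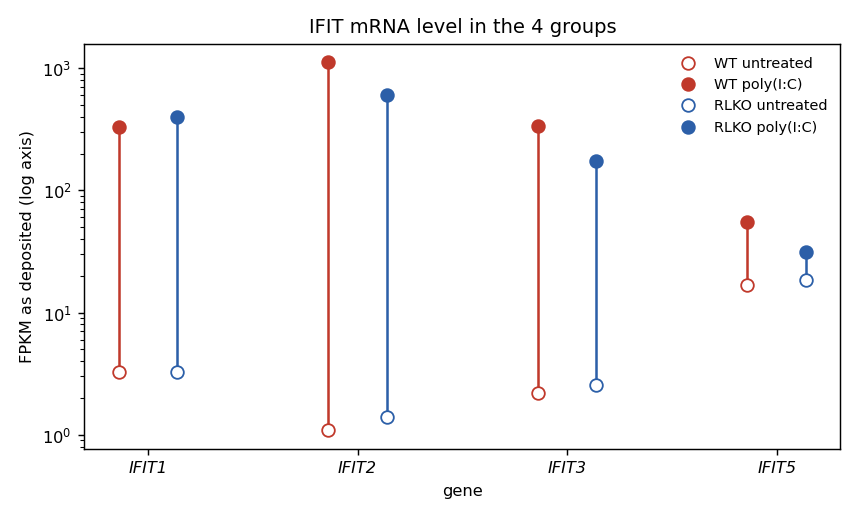
FPKM as deposited (vertical axis, log scale) for each IFIT gene, with untreated cells as open and poly(I:C) cells as filled circles, in WT (red) and RLKO (blue); a circle stands for 1 deposited group value without an error. IFIT2 reached the highest level, 1113 FPKM in WT, and IFIT1 is the gene whose treated RLKO circle, 397 FPKM, is above that of WT.

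In WT cells IFIT1, IFIT2 and IFIT3 rose from a few FPKM to 333 FPKM or more after poly(I:C), and IFIT5, already expressed, was not called. IFIT2 went from 1.09 to 1113 FPKM. Rows that Cuffdiff marked HIDATA were left out of all places, so its place among all genes is not known. Among the 12181 kept protein-coding genes IFIT2 was the 22nd most abundant in treated WT, from place 11065 before. Its log2 change was 8.60 on the spike-in scale, with q = 0.00319 in the authors' deposited table; with this pseudocount it was the third largest of the protein-coding genes. IFIT3 went from 2.18 to 335 FPKM, 154 times its untreated level (log2 change 6.21, q = 0.00657 in the authors' deposited table). IFIT1 went from 3.27 to 333 FPKM, 102 times its untreated level (log2 change 5.75, q = 0.0168 in the authors' deposited table). IFIT1 and IFIT3 were thus at nearly equal levels in treated WT cells, each about 3.3 times below IFIT2. IFIT5 had 16.7 FPKM before and 54.6 FPKM after treatment, a ratio of 3.28 and a log2 change of 1.06, and missed the threshold (p = 0.00445, q = 0.0529 in the authors' deposited table). So 3 of 4 members were called higher in WT, where 4.48% of the 22087 rows with at least 1 FPKM in a group were called higher. By size of the log2 change the members took places 3 (IFIT2), 9 (IFIT3), 13 (IFIT1) and 520 (IFIT5) among the protein-coding genes. These places rest on the pseudocount: with 0.1 they were 7, 20, 24 and 849, and with none 56, 72, 84 and 885.

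In RLKO cells IFIT1, IFIT2 and IFIT3 again had far higher levels after treatment, but the authors' test called only IFIT2. IFIT2 went from 1.41 to 604 FPKM, 429 times its untreated level (log2 change 7.81, q = 0.0107 in the authors' deposited table, the lowest value in that column). IFIT1 had 3.28 FPKM before and 397 FPKM after treatment, a ratio of 121, and IFIT3 had 2.58 and 175 FPKM, a ratio of 67.7. The authors' deposited table gives IFIT1 p = 0.0140 and q = 0.797, and IFIT3 p = 0.0131 and q = 0.773. These log2 changes, 6.37 for IFIT1 and 5.45 for IFIT3, took places 7 and 9 of the protein-coding genes, and IFIT2 took place 3. With a pseudocount of 0.1 IFIT1, IFIT3 and IFIT2 took places 12, 16 and 5, and with none places 49, 55 and 41. IFIT5 had 18.5 and 31.3 FPKM, a ratio of 1.69 (log2 change 0.56, p = 0.0887, q = 1.00 in the authors' deposited table). In all, 1 of 4 members was called higher in RLKO, against 0.512% of the 22087 rows. An unadjusted p under 0.05 was found for 3 of 4, and the share of all rows at that p is not given here.

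Set against each other, the responses were larger with RNase L present for IFIT2, IFIT3 and IFIT5 and smaller for IFIT1. On the spike-in scale the WT change minus the RLKO change was 0.79 for IFIT2, 0.76 for IFIT3 and 0.50 for IFIT5, and -0.63 for IFIT1. In FPKM as deposited it was 1.09, 1.11 and 0.92 for these 3 and -0.25 for IFIT1, and with median-ratio scaling over protein-coding genes 1.18, 1.19 and 1.01, and -0.17. The signs held on each scale. From the spike-in scale to these scales the size for IFIT1 shrank, and the sizes for IFIT2, IFIT3 and IFIT5 grew. With the sum of all ERCC rows the sizes moved the other way, to 0.68, 0.66 and 0.41, and -0.72 for IFIT1. The authors' own difference of normalised log2 folds, in the authors' deposited table, was 0.80, 0.73, 0.50 and -0.71 for the same genes. The median over the members was 0.63, beside a median of -0.47 over all 12181 protein-coding genes, of which 26.7% had a difference above 0. For IFIT1 the difference was near that median, and 57.9% of protein-coding genes had a higher one. For IFIT2 this share was 6.90%, for IFIT3 7.36% and for IFIT5 11.7%. None of these differences was tested, since the table has 1 value for each group.

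The same split showed in the treated levels alone. IFIT2, IFIT3 and IFIT5 were 1.84, 1.92 and 1.74 times as high in treated WT as in treated RLKO in FPKM, and 1.67, 1.74 and 1.58 times on the spike-in scale. IFIT1 was at 0.837 of the treated RLKO level in FPKM and at 0.758 on the spike-in scale. The 3 genes above 1 had ratios within a narrow range, and IFIT1 stood apart from them on each scale.

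**Figure D2:**
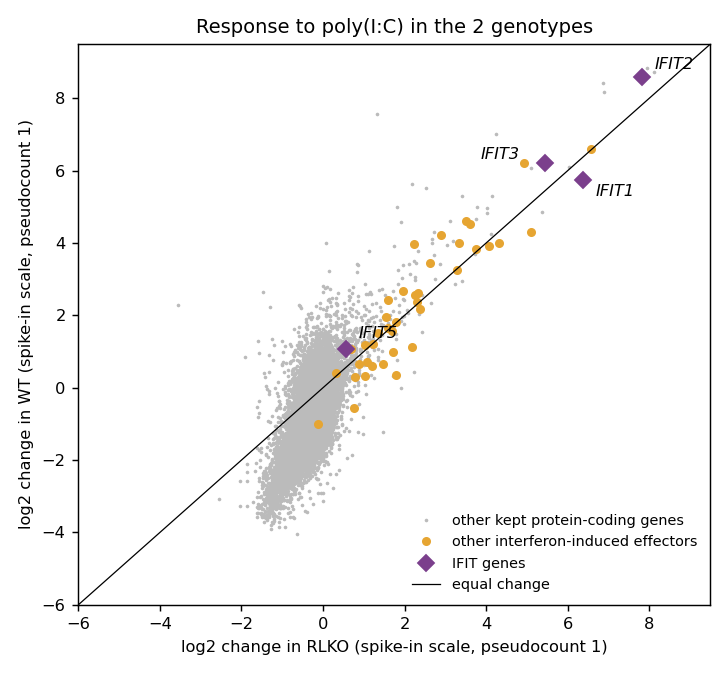
Log2 change after poly(I:C) on the spike-in scale with 1 added, in RLKO (horizontal axis) and WT (vertical axis), for all 12181 protein-coding genes (grey), other interferon-induced effectors (orange) and the IFIT genes (purple diamonds); the line marks equal change. IFIT2, IFIT3 and IFIT5 lie above the line and IFIT1, at 6.37 and 5.75, below it.

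Ratios between members of the same group do not depend on how the groups are scaled to each other. Summed over the 4 genes, IFIT mRNA went from 23.2 to 1836 FPKM in WT and from 25.8 to 1208 FPKM in RLKO. IFIT5 made up 71.8% of the sum in untreated WT and the same share in untreated RLKO, and 2.97% and 2.59% after treatment. IFIT2 made up 4.68% and 5.46% before, and 60.6% and 50.0% after treatment. The family thus turned from mostly IFIT5 to mostly IFIT2 in each line.

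The ratio of IFIT2 to IFIT3 was nearly the same in treated WT and treated RLKO, 3.32 and 3.46, and that of IFIT2 to IFIT5 was 20.4 and 19.3. The ratio of IFIT1 to IFIT3 was 0.993 in treated WT and 2.28 in treated RLKO, although it was 1.50 and 1.27 before treatment. IFIT1 made up 18.1% of the treated sum in WT and 32.9% in RLKO. IFIT1 is annotated with 2 transcripts, of 1880 and 4613 bases, and the table lists the longer. FPKM divides by length, so levels of IFIT1 relative to other members depend on how fragments were assigned to these transcripts, a step the sources used here do not describe. Whether this assignment differed between groups was not tested.

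**Figure D3:**
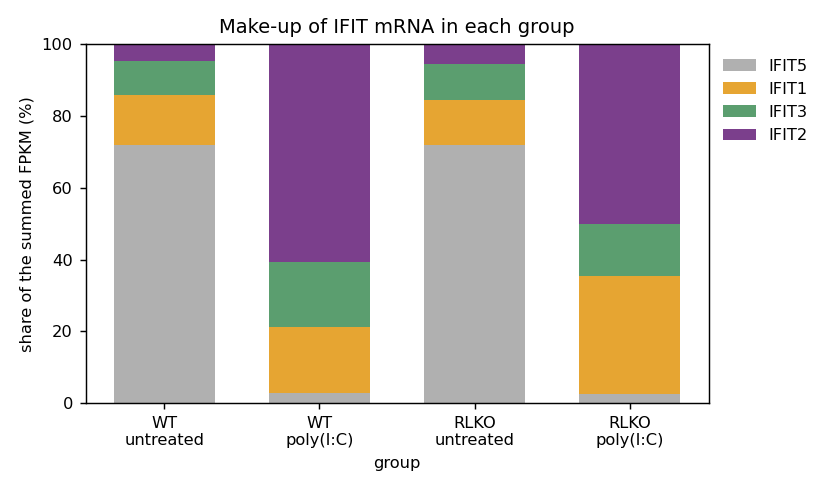
Share of the summed FPKM of the 4 IFIT genes (vertical axis, percent) in each group. IFIT5 (grey) makes up 71.8% in each untreated group, and IFIT2 (purple) 60.6% in treated WT and 50.0% in treated RLKO; IFIT1 (orange) takes 32.9% in treated RLKO and 18.1% in treated WT.

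The genes whose pattern over the 4 groups was most like that of a member were found by Euclidean distance between their log2 levels on the spike-in scale, each gene centred on its own mean. Over 4 values this is a description. The 1 added before log2 can make genes with low untreated levels look alike even where their treated to untreated ratios differ. The 3 closest genes named for each member leave out the other members. For IFIT2 they were the interferon genes IFNL1 (distance 0.21), IFNB1 (0.24) and IFNL2 (0.78). For IFIT3 they were IFIH1, the gene of the RNA sensor MDA5 (0.38), RSAD2, which encodes the antiviral enzyme viperin (0.41), and the cytokine IL6 (0.73). For IFIT1 they were OASL, a member of the oligoadenylate synthetase family without 2-5A synthesis (0.75), IFIH1 (0.96) and the chemokine CXCL10 (0.97). IFIT3 was closer to IFIT1 (0.88) than any gene but OASL. CXCL10, not called in either line, shared with IFIT1 a higher treated level in RLKO (46.1 FPKM) than in WT (33.9 FPKM). The nearer genes OASL and IFIH1 went the other way. OASL had 231 FPKM in treated WT and 164 FPKM in treated RLKO, and IFIH1 had 153 and 88.4 FPKM. IFIT5 resembled none of the other members, which lay at distances of 5.02 to 7.40. Its closest genes were the death receptor gene TNFRSF10B (0.03), the calcium sensor gene STIM2 (0.05) and the cytokine receptor gene IL10RA (0.13). The limit of the added 1 applies to several of the genes named for the members. The authors' normalised folds for IFNL1 were 9893 in WT and 3273 in RLKO, beside 655 and 375 for IFIT2. For RSAD2 they were 12694 and 1182, beside 98.4 and 59.3 for IFIT3. Those of IFIH1, 139 and 57.4, were nearer to IFIT3. IL6 had 114 in WT and 328 in RLKO, so its larger fold was in RLKO, unlike IFIT3. The limit also applies to IL10RA, which stood at 0.0722 FPKM in untreated WT and 0.0203 FPKM in untreated RLKO. The authors' normalised folds for IL10RA were 12.4 in WT and 26.8 in RLKO, beside 2.09 and 1.48 for IFIT5. IL10RA thus did not share the treated to untreated ratios of IFIT5. TNFRSF10B stood at 62.4 and 198 FPKM in WT and at 69.5 and 118 FPKM in RLKO, so its levels were about 4 times those of IFIT5 in each group.

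The members also differed in properties that the levels did not set. The half-life that the deposited table takes from another study, with no unit in its header, was 2.27 for IFIT2, 2.41 for IFIT5 and 3.12 for IFIT3, beside a median of 4 over 9527 protein-coding genes; IFIT1 has no value. IFIT2 was below all but 4.36% of these genes. GC content was 38.6% in IFIT1, 42.2% in IFIT2, 43.2% in IFIT3 and 41.4% in IFIT5, each under the median of 44.5%. In the longest GENCODE transcript, UU and UA together made up 19.3% of dinucleotides in IFIT5, more than in 94.5% of protein-coding genes. The share was 14.1% in IFIT1, 12.7% in IFIT2 and 10.7% in IFIT3, around the median of 11.8%. The pentamer AUUUA occurred 8 times in IFIT5, 7 times in IFIT1, 4 times in IFIT2 and 3 times in IFIT3, which is 1.08 to 1.99 per kb beside a median of 1.10. The 4 transcripts shared no stretch of 30 bases with each other, so a read that matches 30 bases of 1 member matches no other.

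Of the genes on the route to IFIT induction, those that rose were genes of interferons, RNA sensors, transcription factors and feedback inhibitors, and no kinase, adaptor or receptor gene was called. Of 29 listed genes 26 had at least 1 FPKM in a group, some only after treatment. For those a higher treated level in at least 1 line follows from the filter. Over all 22087 kept rows 4.48% were called higher in WT and 0.512% in RLKO. The share called lower is not given here. Of the 26 genes, 10 rose in WT and 7 in RLKO, and none fell. Those called in WT included IFNL3, IFNL4, IFIH1, DDX58, DHX58, IRF1, STAT2, SOCS3 and USP18; of these, DHX58 and SOCS3 were not called in RLKO. By unadjusted p under 0.05, 11 were higher in WT and 11 in RLKO, and none lower. The share of all kept rows at that p is not given here. The median log2 change was 1.39 in WT and 1.03 in RLKO. IFNL1 had 0.0377 and 583 FPKM in WT and 0.0781 and 292 FPKM in RLKO, and IFNB1 0.0752 and 565 FPKM in WT and 0.0519 and 322 FPKM in RLKO; neither passed in either line. IFNL3, listed at 0 in each untreated group, reached 412 FPKM in treated WT and 128 FPKM in treated RLKO, a rise in each line. It is nearly identical to IFNL2, so how fragments were split between them is uncertain. STAT2, a subunit of ISGF3, rose from 7.22 to 67.4 FPKM in WT and from 9.19 to 38.1 FPKM in RLKO.

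IRF3 itself, the factor that acts on IFIT genes first, had 56.8 and 47.5 FPKM in WT and 54.6 and 54.7 FPKM in RLKO and was not called. IRF9 was listed at 0 in every group and IRF7 did not pass 0.0378 FPKM; a listing of 0 can be a failed estimate. The receptor genes IFNAR1, at 13.2 to 16.8 FPKM, and IFNLR1, at 0.672 to 0.805 FPKM, were not called in either line.

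Other interferon-induced effectors that were called moved in the same direction as IFIT1, IFIT2 and IFIT3. Of 43 listed, 39 had at least 1 FPKM in a group, some only after treatment, RSAD2, OAS2 and MX2 among them. For these a higher treated level in at least 1 line follows from the filter. The absence of falls and the median changes below are therefore partly set by it. Of these, 24 rose in WT and 20 in RLKO, beside 4.48% and 0.512% of all kept rows called higher, and none fell. By unadjusted p under 0.05, 32 were higher in WT and 33 in RLKO, and none lower. The share of all kept rows at that p is not given here, so these counts describe the list only. Their median log2 change was 1.96 in WT and 1.79 in RLKO, beside 5.98 and 5.91 for the 4 IFIT genes. WT exceeded RLKO in 22 of the 39 and fell short in 17, and the median difference was 0.03. Among those with the larger change in RLKO, as in IFIT1, was ISG15, the ubiquitin-like modifier, at 294 FPKM in treated WT and 344 FPKM in treated RLKO. MX1, an antiviral GTPase, differed the other way, with 41.8 FPKM in treated WT and 23.5 FPKM in treated RLKO.

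Genes that make or edit the mRNA cap, the structure that IFIT1 reads, were few. Their absence of calls for a higher level does not set them apart from other rows. Of 10 symbols listed 9 were in the table (FAM103A1 and RAMAC name the same gene), and 7 had at least 1 FPKM in a group. Cuffdiff called none of these 7 in either line, and none had an unadjusted p under 0.05. Over the 22087 kept rows 4.48% were called higher in WT and 0.512% in RLKO. At these shares a list of 7 may well hold no call for a higher level. The share of rows called lower is not given here, so the absence of lower calls has no such comparison. The median log2 change of these 7 was -0.69 in WT and -0.05 in RLKO, beside -0.70 and -0.24 for all kept protein-coding genes. CMTR1, which methylates the cap ribose that lets self mRNA escape IFIT1, had 9.86 and 15.9 FPKM in WT and 8.98 and 12.8 FPKM in RLKO. Of 9 kept partners of IFIT proteins and translation factors bound by them, again a short list, Cuffdiff called none. An unadjusted p under 0.05 was found for 1, lower in WT. That gene was EIF3E, a subunit of initiation factor eIF3 that IFIT proteins bind, with 931 and 188 FPKM in WT (p = 0.00505, q = 0.0576 in the authors' deposited table) and 825 and 623 FPKM in RLKO.

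Around the cluster, several rows that are not IFIT members had treated levels in WT far above those in RLKO. Within 300 kb of the 4 genes lay 22 other rows, of which 16 had at least 1 FPKM in a group. Of the 16, 8 reached that level only in treated WT, AL353751.1, IFIT6P, IFIT1B, SLC16A12 and its antisense row among them. Their larger change in WT follows from the filter, so only their values are given. Cuffdiff called 1 of the 16 in WT, AL157394.1 next to FAS, where 4.48% of the 22087 kept rows were called higher. AL157394.1 too reached 1 FPKM only in treated WT. None of the 16 was called in RLKO, where 0.512% of kept rows were called higher. An unadjusted p under 0.05 was found for 2 in WT and 1 in RLKO. SLC16A12, a transporter gene on the minus strand whose annotated end lies 9.30 kb past the end of IFIT5, had 0.170 and 12.6 FPKM in WT and 0.0333 and 0.156 FPKM in RLKO (q = 0.301 for WT in the authors' deposited table). Its antisense row SLC16A12-AS1, on the strand of the IFIT genes, was listed at 0 and stood at 3.61 FPKM in WT, and went from 0.126 FPKM to a listing of 0 in RLKO.

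Rows between the members behaved likewise. The pseudogene IFIT6P, between IFIT3 and IFIT1B, had 0.0149 and 2.29 FPKM in WT, and 0.0283 FPKM and a listing of 0 in RLKO. IFIT1B was listed at 0 and stood at 1.25 FPKM in WT, and had 0.0193 and 0.0707 FPKM in RLKO. AL353751.1, which starts just inside IFIT2 on the same strand, had 0.0478 and 11.5 FPKM in WT and 0.174 and 0.358 FPKM in RLKO, and 35.2% of its exon bases are also exon bases of IFIT2. None of these 3 passed in WT. The authors' deposited table marks them, and SLC16A12 and its antisense row, as not tested in RLKO. IFIT1B and IFIT1 share 89 of the 1943 stretches of 30 bases in IFIT1B, or 4.58%, and IFIT6P shares 2.06% of its own with IFIT1. IFIT1P1, a processed pseudogene on chromosome 13, did not pass 0.488 FPKM in all groups.

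LIPA, which encodes lysosomal acid lipase, lies on the minus strand, and its introns span IFIT2, IFIT3 and IFIT1. It had 46.3 and 99.6 FPKM in WT and 52.4 and 46.8 FPKM in RLKO, and was not called in either (q = 0.407 and 1.00 in the authors' deposited table). Its exons overlap those of IFIT2 by 65 bases, 1.32% of its own exon bases. The sources used here do not say whether the libraries kept the strand, so fragments of overlapping genes on opposite strands may not be told apart. CH25H, the cholesterol 25-hydroxylase gene beyond LIPA, had 0.0245 and 30.6 FPKM in WT and 0.0344 and 14.3 FPKM in RLKO without passing. Farther out, FAS, PANK1 and KIF20B had treated to untreated ratios of 0.839, 1.27 and 1.10 in WT and 0.908, 1.24 and 0.762 in RLKO. Among other distant rows, ACTA2, the smooth muscle actin gene, had ratios of 3.85 in WT and 1.47 in RLKO. AL157400.4 had 4.17 and 1.31, but reached 1 FPKM only in treated WT, so its larger ratio there follows from the filter. RF02116, an RNA row inside FAS, was listed at 0 and stood at 17.9 FPKM in WT, and had 0.770 and 5.88 FPKM in RLKO. How far fragments from the IFIT genes contribute to the rows around them was not tested.

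**Figure D4:**
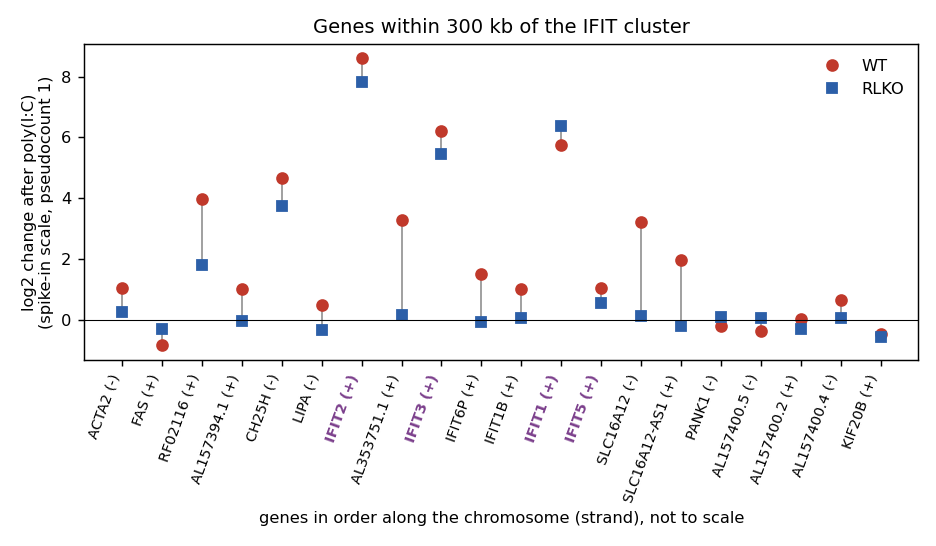
Log2 change after poly(I:C) on the spike-in scale with 1 added (vertical axis) for the 20 kept rows within 300 kb of the IFIT cluster, ordered along the chromosome (not to scale), in WT (red circles) and RLKO (blue squares); IFIT genes are in purple. AL353751.1, IFIT6P, IFIT1B and SLC16A12 are among 8 rows that reached 1 FPKM only in treated WT. Their higher WT points follow from that filter. For IFIT1 the WT point is below that of RLKO.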

How the data were processed

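Per the submitters' processing notes, reads were handled with Cuffdiff 2.2.1, TopHat2 2.0.6, Bowtie2 2.0.2, Trimmomatic 0.32 and FastQC on build GRCh38.p12. The sources used here give no settings. The authors deposited 1 FPKM value per group, pooled over 3 samples, and their Cuffdiff p-values and q-values within each genotype, per the file headers. GC content in percent, lengths and a half-life were also deposited. No column held a single sample, so the planned limma fits could not be made and read depth is unknown.

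All 58671 identifiers matched GENCODE 29. Rows with status HIDATA (86) and repeated identifiers (45) were left out, and rows with at least 1 FPKM in a group were kept. Spike-in factors were medians, over 49 ERCC rows averaging 1 FPKM or more, of the ratio to the geometric mean; the pseudocount was 1, which understates changes of low genes. How Cuffdiff scaled the libraries for its test is unknown here. Scaling was tested on simulated data (Python 3.11). Named were all members and other IFIT rows, the 3 most alike genes per member, rows within 300 kb and list members; further list members and the neighbours' order were picked after values were seen. Members and lists were chosen with earlier results of these data known. Alternatives were other scalings, pseudocounts, filters and thresholds. Values of a few genes that the rule would name are not reported here.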

Additional observations from a re-analysis of the deposited data

How the results depend on the processing

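The log2 change of each of the 4 members kept its direction in each genotype under all 7 other scalings and pseudocounts, 56 values in all, and 3 of 4 members had the larger change in WT under each of them. The median difference over the members, 0.63, was 1.01 in FPKM as deposited, 1.09 with median-ratio scaling over protein-coding genes, 0.62 with ERCC rows of at least 10 FPKM, 0.54 with the sum of all ERCC rows and 0.56 with the authors' constants (1.56 in WT and 1.14 in RLKO), an alternative chosen after seeing the data. Relative to the median protein-coding gene it lay between 1.02 and 1.18 under every setting run. The untreated log2 ratio of WT to RLKO, small throughout, turned negative in FPKM as deposited for IFIT1 (-0.0024), IFIT3 (-0.17) and IFIT5 (-0.14), and with median-ratio scaling for IFIT3 (-0.15) and IFIT5 (-0.12). With a q threshold of 0.01, Cuffdiff called 2 members in WT and 0 in RLKO, where 3 had an unadjusted p under 0.05; the lowest q of the RLKO column is 0.0107, so no row could pass there. Adjusting the authors' p-values over the kept rows left 3 and 1. Over every gene row the background was 2.06% in WT and 0.198% in RLKO, and over protein-coding rows 0.821% in RLKO. No paired analysis was possible because the table holds no value of a single sample, and for the same reason replicates could not be left out in turn and the limma alternatives were not run. With read depth unknown, the precision of low levels, such as those of IFIT1B and IFIT6P, cannot be given.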
